A study of Mus musculus with 10 samples.

Results

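The genes described here encode the subunits of Mediator, the complex that carries signals from DNA-bound transcription factors to RNA polymerase II. The 33 members were taken by gene name, and all 33 were found among the 40503 genes of the deposited gene table, with 148 of the 84046 transcripts of the transcript table. They were grouped by textbook structure into the head (11 genes), the middle (9), the scaffold subunit Med14, the tail (5) and the kinase module (7). RNA came from gonadal white adipose tissue, the fat beside the ovaries and uterus, of female C57BL/6 mice 12 weeks old. The 5 KO libraries were labelled as mice with an inducible adipose knockout of Med19 (MED19-iAKO), given 100 mg/kg tamoxifen for 5 days, with the fat taken 14 days later. The 5 WT libraries were labelled as control mice of the same strain, sex and age. Whether the controls received tamoxifen, which promoter drove the recombinase and which exons were removed are questions the sources used here do not answer. The question was how the RNA of the other subunits stood in fat in which an adipose deletion of 1 middle subunit had been induced. KO and WT name the libraries by their labels, each with the number of its animal.

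Mediator is built from a head that contacts RNA polymerase II, a middle, and a tail that many activators bind, with Med14 running through as the backbone that joins them. A separable kinase module, made of a cyclin-dependent kinase, cyclin C and the Med12 and Med13 proteins or their paralogs, binds the core reversibly and blocks its contact with the polymerase. In fat cells Med1 contacts the adipogenic receptor PPAR gamma, Med23 is known for its part in insulin-driven adipogenesis, and Med15 binds the lipogenic factor SREBP. Med19 lies at the outer end of the middle, where it meets the kinase module.

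The promoters of Med19 and of the 4 subunit genes whose RNA passed the test below are shown because these are the members the results turn on. Each run holds the bases that lie 250 to 36 before the start of the RefSeq transcript, on the gene's strand and 5′ to 3′ (RefSeq, GRCm38.p6). The Med19 run is chr2:84678152-84678366 (+), Med31 is chr11:72215628-72215842 (-), Med27 is chr2:29346560-29346774 (+), Med21 is chr6:146642329-146642543 (+) and Med16 is chr10:79908974-79909188 (-). Capitals mark the letters of a searched motif on either strand.
Med19: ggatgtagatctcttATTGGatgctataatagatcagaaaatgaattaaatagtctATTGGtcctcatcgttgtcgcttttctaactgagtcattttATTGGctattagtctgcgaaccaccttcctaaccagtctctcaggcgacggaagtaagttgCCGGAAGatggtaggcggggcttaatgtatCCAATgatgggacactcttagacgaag
Med31: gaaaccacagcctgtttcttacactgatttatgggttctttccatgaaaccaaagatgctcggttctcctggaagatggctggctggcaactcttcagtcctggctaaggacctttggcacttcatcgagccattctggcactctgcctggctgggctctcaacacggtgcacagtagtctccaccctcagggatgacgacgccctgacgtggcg
Med27: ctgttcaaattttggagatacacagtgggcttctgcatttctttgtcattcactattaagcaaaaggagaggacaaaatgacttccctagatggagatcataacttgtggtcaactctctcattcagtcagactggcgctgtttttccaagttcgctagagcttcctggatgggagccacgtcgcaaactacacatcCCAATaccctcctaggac
Med21: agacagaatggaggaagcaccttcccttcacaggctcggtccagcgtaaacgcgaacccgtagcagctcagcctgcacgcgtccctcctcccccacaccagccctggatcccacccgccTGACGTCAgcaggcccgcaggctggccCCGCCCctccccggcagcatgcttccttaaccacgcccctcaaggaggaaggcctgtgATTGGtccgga
Med16: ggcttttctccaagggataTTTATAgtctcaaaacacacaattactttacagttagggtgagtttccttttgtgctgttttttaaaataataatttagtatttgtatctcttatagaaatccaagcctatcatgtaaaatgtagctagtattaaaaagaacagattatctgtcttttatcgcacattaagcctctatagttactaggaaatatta

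The 5 runs had little in common. The Med19 promoter held 4 copies of the CCAAT box and 1 ETS motif (CCGGAAG). Med27 had 1 CCAAT box, and Med21 had 1 CCAAT box, 1 SP1 motif (GGGCGG) and 1 cyclic AMP response element (TGACGTCA). Med16 held 1 match to the TATA box letters TATAAA, on the strand opposite the gene. Its window was the poorest in G and C of all members' windows, at 29.3%. None of the searched motifs occurred in the Med31 run. In all, 28 of the 33 members had 32 windows of this kind, with a median G and C content of 55.6%, against 51.6% over 32851 windows of all genes. The SP1 motif was in 56.2% of the members' windows, against 27.7% of all windows. The ETS motif was in 15.6%, against 4.77% of all, in the windows of Med4, Med14, Med15, Med17 and Med19. The CCAAT box was in 37.5%, against 30.4%, and TATAAA in 9.38%, against 9.75%. All windows end 36 bases before the start, so TATAAA nearer to it was not searched. The cyclic AMP response element was in 3.12%, against 1.1%, and the E-box CACGTG in 6.25%, against 4.84%. The motifs of NRF1 (GCGCAT followed at once by GCGC), YY1 (AAGATGGCG) and the PPAR-RXR pair (2 copies of AGGTCA with any 1 base between them) were in 0 of the members' windows, against 0.542%, 0.533% and 0.0304% of all windows. These are matches of letters in short windows and no measure of binding.

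The libraries held 15178110 to 20178084 reads assigned to genes in KO and 14440554 to 16185637 in WT, as recovered from the deposited RPKM values (the density of reads along a gene, divided by the library's reads). A tested member had 58 to 4251 reads in a library, for a counting error with a median of 4.52% in KO and 4.94% in WT libraries over the members. That error was at or above the spread between libraries for 5 of 32 members in KO and 3 of 32 in WT libraries. Summed RPKM of 8 adipocyte markers was 5240 to 5490 in KO and 13000 to 18800 in WT libraries, and 7 of the 8 passed the test as lower. Macrophage markers summed to 698 to 857 in KO and 489 to 686 in WT libraries, with 0 of 5 called by limma (3 at an unadjusted p under 0.05) and 2 by voom. Monocyte and neutrophil markers summed to 437 to 798 in KO and 184 to 359 in WT libraries, with 2 of 5 called higher. Fibroblast and progenitor markers summed to 1310 to 1550 in KO and 1090 to 1340 in WT libraries, with 0 of 5 called by limma (2 at an unadjusted p under 0.05) and 1 by voom. Endothelial, pericyte and mesothelial sums overlapped between the groups, with 1 gene lower in each of the endothelial (Kdr) and pericyte (Cspg4) lists and 1 mesothelial gene (Lrrn4) called by voom only, higher in KO. Sums of T cell, B cell, mammary and ovary markers also overlapped. Of the skeletal muscle markers, Ckm, Myh4, Mylpf and Tnnt3 were highest in KO animals 1 and 4. Ckm had 10.9 and 6.19 RPKM there, against 0.0407 to 0.0789 RPKM in the other KO libraries and 0 to 2.69 RPKM in WT libraries. Acta1, the most abundant muscle marker, did not follow this pattern. It had 44.08 and 31.01 RPKM in KO animals 1 and 4, and 15.97 to 37.52 RPKM in WT libraries. In KO animals 7, 8 and 17 Acta1 was lower, at 1.168, 0.865 and 3.413 RPKM. Counts without KO animals 1 and 4 are given below. No marker was at 0 in all libraries, and the part of these shifts in the results below was not tested. In bulk tissue, fewer cells of a type and less RNA per cell cannot be told apart.

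Med19 RNA did not separate the groups. Med19 (ENSMUSG00000027080) stood at 7.99, 5.58, 6.83, 6.84 and 6.74 RPKM in KO animals 1, 4, 7, 8 and 17, and at 7.58, 7.64, 6.11, 6.55 and 5.62 RPKM in WT animals 2, 9, 19, 86 and 89. The highest value was in a KO library and the lowest was also in a KO library, and the groups overlapped over nearly their whole range. The means were 6.79 ± 0.854 RPKM in KO and 6.70 ± 0.893 RPKM in WT libraries (SD, n = 5 each; 2-sided exact permutation p = 0.881 over all ways to assign 5 and 5 libraries, whose smallest possible p is 0.0079). On the log2(RPKM + 0.5) scale the difference was 0.02 with a standard error (SE) of 0.11 (limma, Benjamini-Hochberg adjusted p = 0.937), and its 95% interval ran from a ratio of 0.862 to 1.19. The sign turned negative under other scalings, at -0.07 with median-ratio scaling, and the size stayed small. The deposited values cover the gene as a whole and the deleted exons are not known here, so they do not check the deletion itself. The 2 groups are therefore compared by their labels in every direction given below.

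Of the 32 members that passed the filter (at least 0.5 RPKM in at least 5 of the 10 libraries), 3 were higher in KO libraries at an adjusted p under 0.05 and 1 was lower. Over all 17038 genes tested, 5.95% were called in either direction. The members' share was 9.38% higher, against 4% of all genes (681), and 3.12% lower, against 1.95% of all genes (332). The genes that rose were Med31, Med27 and Med21, and the gene that fell was Med16. A positive difference was seen in 28 of the 32 (87.5%), against 68.7% of all genes, and the median log2 difference was 0.129, against 0.0891 over all genes. An unadjusted p under 0.05 was found for 11 members (34.4%), against 24.7% of all genes. With median-ratio scaling, which centres the libraries on the typical gene, 1 member was higher (Med31) and 1 lower (Med16), against 103 genes (0.605%) higher and 417 (2.45%) lower over all, and the members' median was 0.043, against 0.009 over all genes. Without KO animals 1 and 4, a setting added after seeing the data, 0 members were called in either direction. Over all 17122 genes tested there, 82 were called higher and 140 lower. The members' median was 0.113, against 0.093 over all genes. An unadjusted p under 0.05 was found for 9 members, and the share of all genes at that level in this setting is not given here. Quantile normalization gave the same counts for the members as median-ratio scaling, 1 higher and 1 lower, against 0.875% and 2.28% of all genes.

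**Figure D1:**
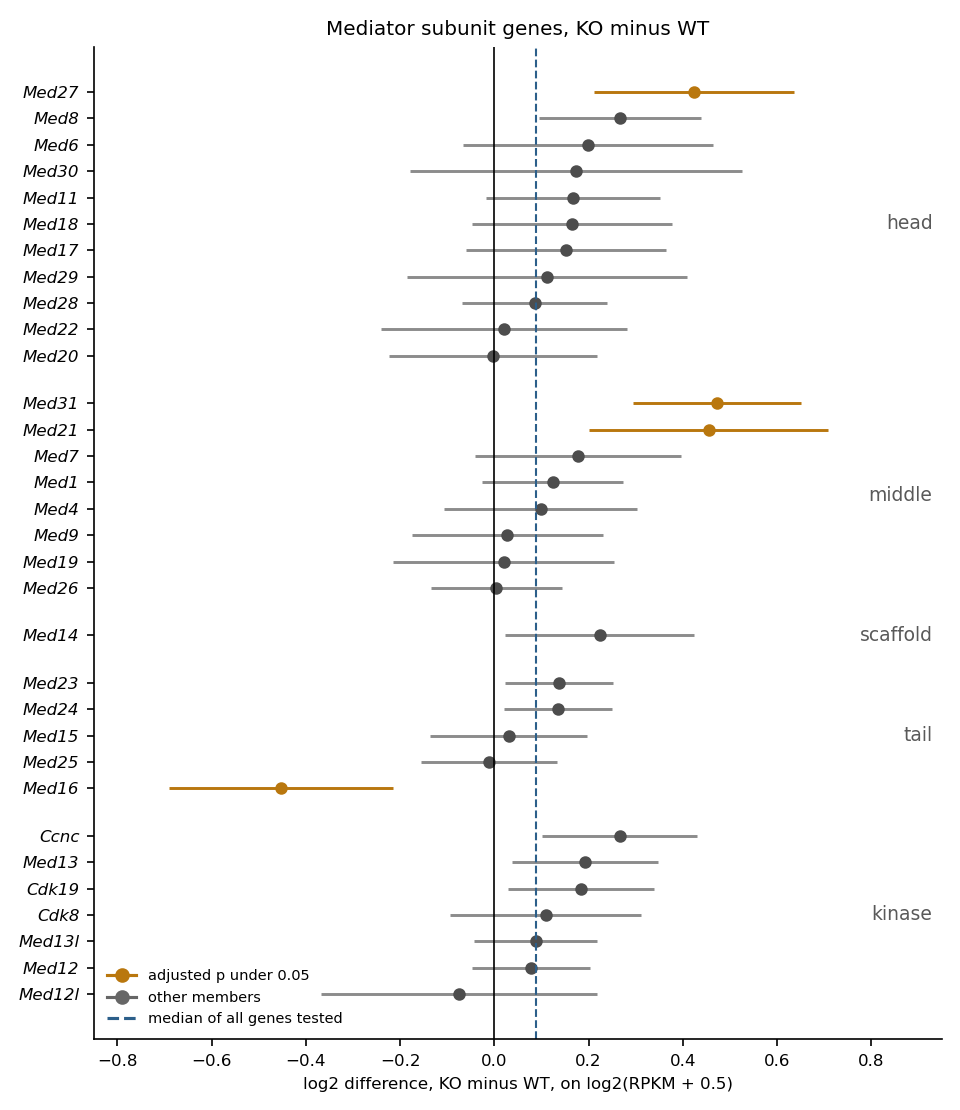
Log2 difference of KO minus WT on log2(RPKM + 0.5) for the 32 Mediator subunit genes tested, by module, with 95% intervals (horizontal lines), the zero line and the median of all genes tested (dashed, 0.09). Med27, Med31 and Med21 lie to the right and Med16 to the left in orange, as the 4 genes with an adjusted p under 0.05, and 28 of the 32 points lie right of zero.

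The head module had 1 gene higher and 0 lower of 11 tested, and its median log2 difference was 0.165. Med27, a subunit at the border of the head and tail, had 5.29, 4.38, 3.98, 4.85 and 3.77 RPKM in KO animals 1, 4, 7, 8 and 17, against 3.31, 3.09, 3.24, 2.76 and 3.50 RPKM in WT animals 2, 9, 19, 86 and 89. All 5 KO libraries lay above all 5 WT libraries. The means were 4.45 ± 0.622 RPKM in KO and 3.18 ± 0.278 RPKM in WT libraries (SD, n = 5 each), a log2 difference of 0.42 (SE 0.10, limma adjusted p = 0.0323). That call ended in 5 of 13 other settings, median-ratio scaling among them, with an adjusted p of up to 0.142. It also ended when any of KO animals 1 and 8 and WT animals 9, 19 and 86 was left out, with an adjusted p of up to 0.0767 (limma). Med11, a small subunit of the head and its most abundant RNA by gene value, had 17.1, 19.3, 18.9, 21.0 and 16.5 RPKM in KO and 17.5, 16.2, 18.3, 16.2 and 14.3 RPKM in WT libraries. Med18, which in yeast forms the movable jaw of the head with Med20, was the least abundant, with 3.46, 3.81, 4.02, 3.46 and 3.40 RPKM in KO libraries and 3.01, 3.21, 4.01, 2.66 and 3.11 RPKM in WT libraries. Both genes overlapped between the groups. The other 8 head genes, among them Med17, the large subunit on which the head is built, had log2 differences of -0.00 (Med20) to 0.27 (Med8), and none passed the test. Counting Med27 to Med30 in the tail, as some structures do, left the head with 0 of 7 called and the same median of 0.165, and gave the tail 1 higher and 1 lower of 9 and a median of 0.111.

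In the middle module, 2 of 8 tested genes were higher in KO libraries and 0 lower, with a median log2 difference of 0.111. Med31, a small conserved subunit that binds Med7, had the smallest adjusted p of all members. It had 3.61, 3.86, 3.90, 3.66 and 3.66 RPKM in KO animals 1, 4, 7, 8 and 17, against 2.10, 2.64, 2.60, 2.52 and 2.98 RPKM in WT animals 2, 9, 19, 86 and 89. The KO libraries lay close together and all above the highest WT library, animal 89. The means were 3.74 ± 0.133 RPKM in KO and 2.57 ± 0.314 RPKM in WT libraries (SD, n = 5 each), a log2 difference of 0.47 (SE 0.08, limma adjusted p = 0.0102, 95% interval of the ratio 1.23 to 1.57). Med31 was called with each library left out in turn and in 11 of 13 other settings. Without both KO animals 1 and 4 the difference was again 0.47, with an adjusted p of 0.0701 (limma). The counting error of Med31, 9.47% in KO and 12.2% in WT libraries, was larger than its spread of 3.56% in KO and as large as its spread of 12.2% in WT libraries.

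Med21, which pairs with Med7 in the hinge of the middle, had 8.73, 5.86, 7.38, 8.26 and 7.50 RPKM in KO animals 1, 4, 7, 8 and 17, against 5.42, 5.06, 4.43, 5.46 and 6.43 RPKM in WT animals 2, 9, 19, 86 and 89. The groups overlapped through KO animal 4, which lay below WT animal 89, and the other 4 KO libraries lay above all WT libraries. The means were 7.55 ± 1.09 RPKM in KO and 5.36 ± 0.727 RPKM in WT libraries (SD, n = 5 each), a log2 difference of 0.45 (SE 0.11, limma adjusted p = 0.0447). The call held in 2 of 10 fits that left out 1 library, those without KO animal 4 or WT animal 89, where the adjusted p was 0.0197 at its lowest and otherwise up to 0.105, and in 6 of 13 other settings, which did not include median-ratio scaling. Tm7sf3, a protein-coding gene that overlaps Med21 on the other strand, had a log2 difference of 0.12 (limma adjusted p = 0.504). Whether the reads were counted by strand is not stated.

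Among the other middle genes, Med9 was the most abundant by gene value, with 9.29, 12.5, 10.5, 9.72 and 12.1 RPKM in KO libraries and 11.1, 11.4, 9.61, 9.69 and 10.9 RPKM in WT libraries. Med7 was the least abundant tested gene by gene value, with 2.27, 2.21, 2.22, 2.14 and 2.02 RPKM in KO libraries and 2.16, 2.21, 1.80, 1.44 and 1.77 RPKM in WT libraries. For both genes the groups overlapped. Med1, the receptor-binding subunit, had a mean of 9.86 ± 0.663 RPKM in KO and 9.01 ± 0.707 RPKM in WT libraries, and Med26, which recruits elongation factors in mammalian cells, had 4.70 ± 0.278 RPKM in KO and 4.69 ± 0.280 RPKM in WT libraries (SD, n = 5 each). Neither passed the test. Med14, the scaffold, had 9.84, 7.96, 10.1, 8.14 and 9.34 RPKM in KO and 7.74, 8.52, 7.02, 6.74 and 8.48 RPKM in WT libraries, a log2 difference of 0.22 (SE 0.09, limma adjusted p = 0.160). Its 3 highest libraries were KO and the groups overlapped.

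**Figure D2:**
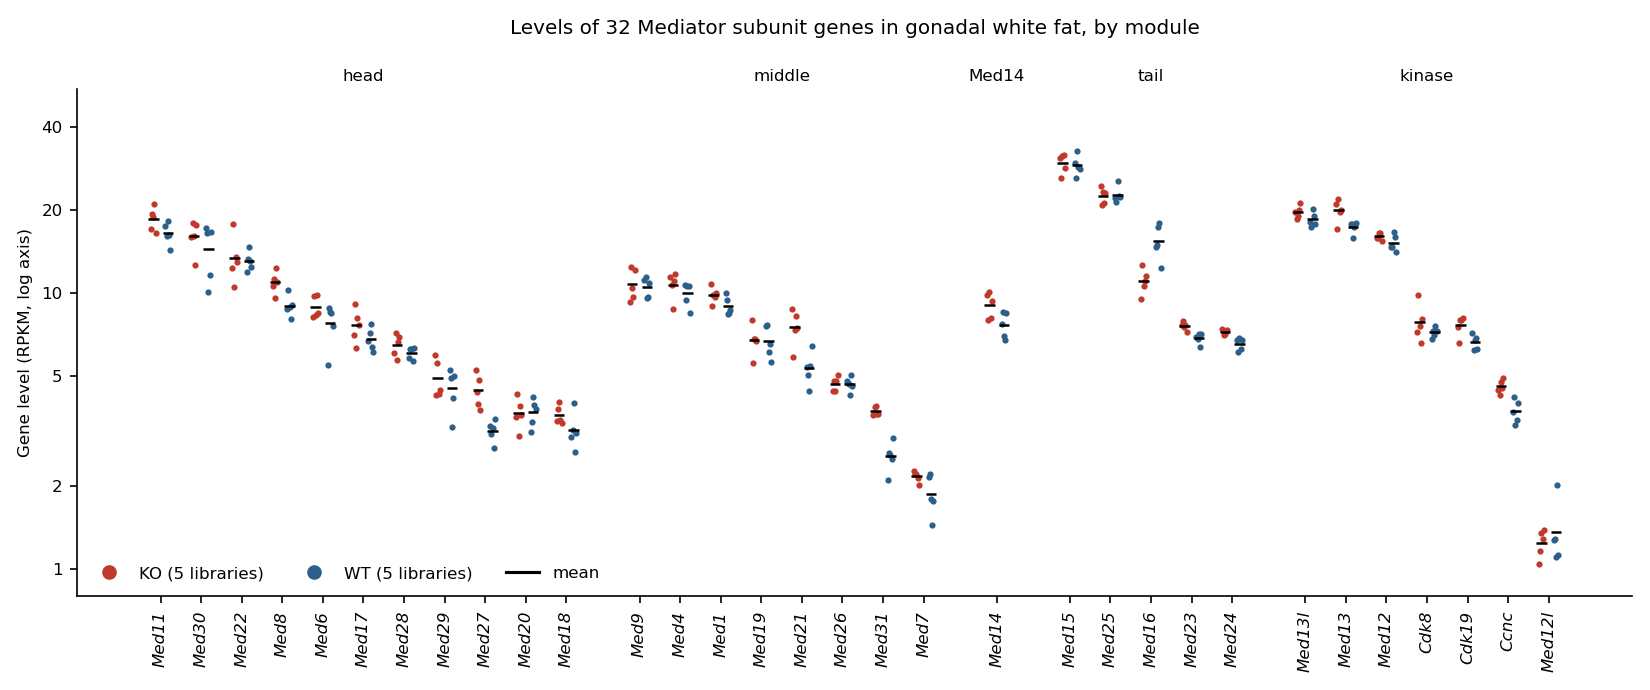
RPKM (log axis) of the 32 tested Mediator subunit genes in each of 5 KO (red, left of each pair) and 5 WT (blue, right) libraries, ordered by mean within each module, with group means as black bars. By gene value the tail genes Med15 and Med25 are the highest and the kinase module gene Med12l the lowest, and Med16 is the gene whose KO points lie clearly to the low side.

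The tail module had 0 genes higher and 1 lower of 5, with a median log2 difference of 0.03. The sign of that median turned with median-ratio scaling (-0.06) and quantile normalization (-0.07). Med16, which forms a submodule with Med23 and Med24 in mammals, had 9.52, 12.7, 10.6, 11.1 and 11.6 RPKM in KO animals 1, 4, 7, 8 and 17, against 14.7, 14.9, 17.3, 18 and 12.3 RPKM in WT animals 2, 9, 19, 86 and 89. The groups overlapped only through KO animal 4 and WT animal 89. The means were 11.1 ± 1.17 RPKM in KO and 15.4 ± 2.28 RPKM in WT libraries (SD, n = 5 each). Med16 fell by 0.45 on the log2 scale (SE 0.11, limma adjusted p = 0.0381). This call was kept in 2 of 10 fits that left out 1 library, those without KO animal 4 or WT animal 89, with adjusted p-values of 0.0207 to 0.089 over the 10 fits, and in 9 of 13 other settings. With median-ratio scaling it was kept, and every KO library then lay below every WT library, which held for 3.79% of all genes.

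Med23 and Med24, the partners of Med16 in the tail, were instead higher in all 5 KO than in all 5 WT libraries by small amounts that did not pass the test. Med23 had 7.68, 7.96, 7.52, 7.65 and 7.21 RPKM in KO and 6.94, 6.80, 7.13, 6.38 and 7.13 RPKM in WT libraries, a log2 difference of 0.14 (limma adjusted p = 0.137). Med24, the least abundant tail gene, had 7.41, 7.08, 7.08, 7.32 and 7.33 RPKM in KO and 6.77, 6.13, 6.88, 6.26 and 6.75 RPKM in WT libraries, a log2 difference of 0.14 (limma adjusted p = 0.139). Groups that did not overlap in this direction were found for 5 of the 32 members (Med27, Med31, Med23, Med24 and Ccnc), or 15.6%, against 6.96% of all genes. In the other direction it held for 0 members, against 2.15% of all genes. With median-ratio scaling 1 of them (Med31) was left, or 3.12% of the members, against 1.9% of all genes. Med15 was the most abundant of all members by gene value, with 30.8, 26.2, 31.5, 31.6 and 28.3 RPKM in KO libraries and 29.5, 26.1, 32.7, 28.6 and 28.3 RPKM in WT libraries. The tail activator target Med25 had 22.5 ± 1.5 RPKM in KO and 22.7 ± 1.55 RPKM in WT libraries (SD, n = 5 each). Neither Med15 nor Med25 differed by more than the spread between libraries.

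No gene of the kinase module passed the test by limma on RPKM as designed or by voom on the recovered reads. An unadjusted p under 0.05 was found for 3 of 7 (42.9%), against 24.7% of all genes. A positive difference was found in 6 of 7 (85.7%), against 68.7% of all genes, with a median of 0.109, against 0.0891 over all genes. Cyclin C, encoded by Ccnc, activates both kinases of the module. Ccnc had 4.45, 4.28, 4.78, 4.53 and 4.94 RPKM in KO and 3.72, 4.21, 3.33, 3.46 and 4.00 RPKM in WT libraries, with no overlap, and a log2 difference of 0.27 (SE 0.07, limma adjusted p = 0.0604). With array weights, which weight libraries by their fit, Ccnc was called (0.28, limma adjusted p = 0.047), which made 4 members higher. Tstd3, which overlaps Ccnc on the other strand, had a log2 difference of 0.12 (limma adjusted p = 0.630).

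The kinase Cdk8 had 7.22, 9.87, 7.63, 6.62 and 8.08 RPKM in KO and 6.84, 7.27, 7.08, 7.61 and 7.29 RPKM in WT libraries. Its paralog Cdk19 had 7.51, 6.59, 7.98, 8.01 and 8.16 RPKM in KO and 7.15, 6.21, 6.79, 6.91 and 6.27 RPKM in WT libraries. Cdk8 was highest and Cdk19 lowest among KO libraries in animal 4, and both genes overlapped between the groups. The ratio of Cdk8 to Cdk19 within a library, which a single scaling factor per library leaves as it is, averaged 1.05 ± 0.260 in KO and 1.09 ± 0.0895 in WT libraries (SD, n = 5 each).

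Med13l and Med13, which tether the kinase module to the core, were its most abundant RNAs by gene value. Med13l had 19.7, 18.5, 19.0, 20 and 21.2 RPKM in KO and 18.1, 17.3, 20.2, 19.1 and 17.8 RPKM in WT libraries. Med13 had 21.0, 17.1, 21.9, 19.7 and 20.1 RPKM in KO and 17.7, 17.8, 15.9, 17.4 and 18 RPKM in WT libraries, and 4 of its 5 KO libraries, all but animal 4, lay above all WT libraries. The log2 difference of Med13 was 0.19 (limma adjusted p = 0.125), and without KO animal 4 the adjusted p was 0.0421. The ratio of Med13 to Med13l was 0.923 to 1.15 in KO and 0.784 to 1.03 in WT libraries. Med12, which activates the kinase within the module, had 15.9, 15.8, 16.5, 16.6 and 15.5 RPKM in KO and 14.7, 14.7, 16.7, 15.9 and 14.1 RPKM in WT libraries. Its paralog Med12l was the lowest of the tested members, with 1.04, 1.17, 1.36, 1.29 and 1.39 RPKM in KO libraries and 1.28, 1.29, 1.11, 2.02 and 1.13 RPKM in WT libraries. The Med12 to Med12l ratio was 11.1 to 15.2 in KO and 7.88 to 15.1 in WT libraries, overlapping like the others. P2ry12, a microglia and macrophage gene that overlaps Med12l on the other strand, had a log2 difference of 0.52 (limma adjusted p = 0.0617).

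**Figure D3:**
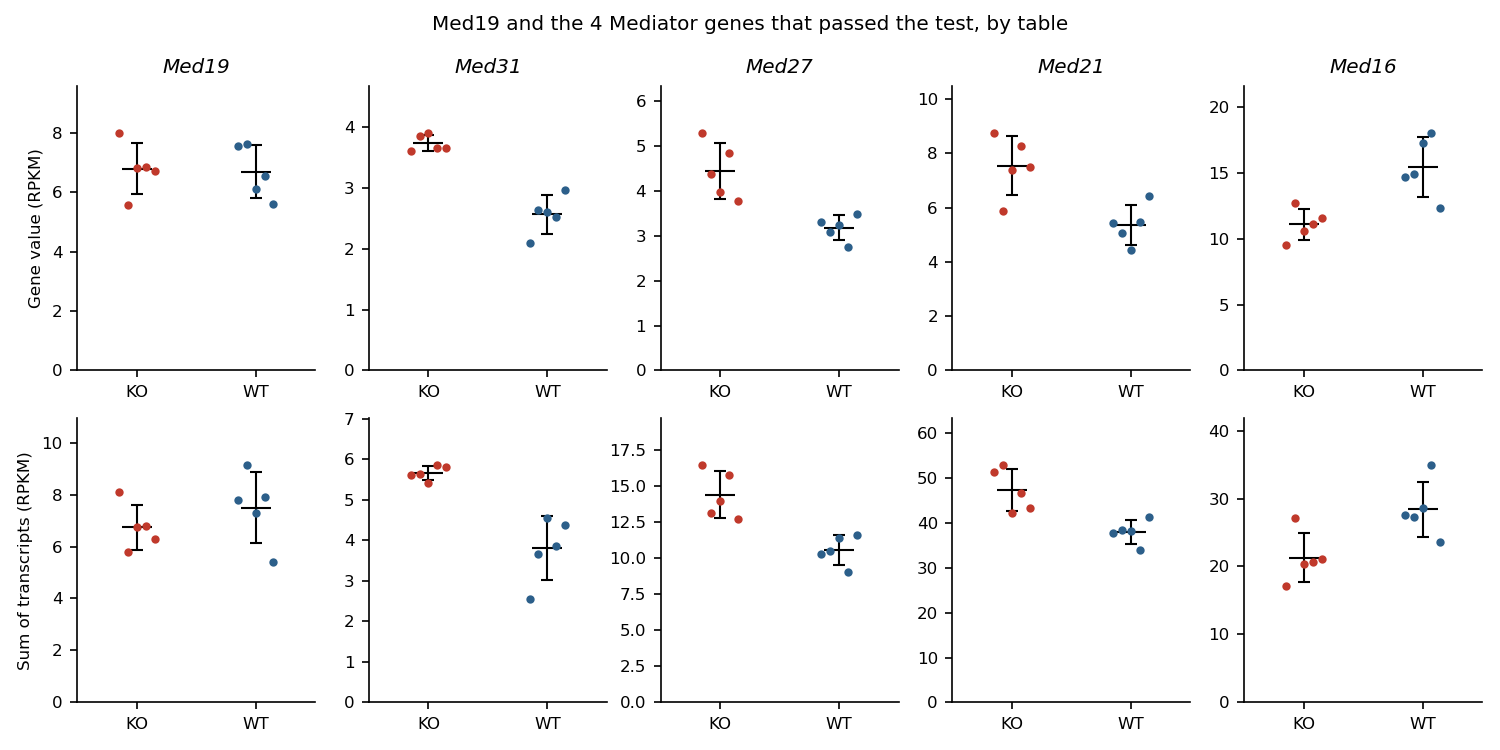
RPKM of Med19 and of the 4 Mediator genes that passed the test, in each KO (red, left) and WT (blue, right) library, with mean and SD (black bars, n = 5), as the gene value (top) and as the sum of the gene's transcripts (bottom). Each axis starts at 0, Med19 overlaps in both rows of panels, Med31 and Med27 lie higher in KO in both, and the sums of Med21 and Med27 are several times their gene values.

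Summed over all members, the level was 321, 320, 315, 320 and 321 RPKM in KO animals 1, 4, 7, 8 and 17, against 299, 298, 305, 294 and 291 RPKM in WT animals 2, 9, 19, 86 and 89. All KO sums lay above all WT sums (319 ± 2.41 in KO and 297 ± 5.26 in WT libraries, SD, n = 5 each). After median-ratio scaling the sums were 300 to 318 in KO and 298 to 315 in WT libraries and overlapped. Med10, whose gene value was 0 RPKM in 9 of 10 libraries, added almost nothing to any of these sums. Of the 32 tested genes, 27 had their highest value in a KO library and 5 in a WT library, and 8 had their lowest value in a KO library and 24 in a WT library. KO libraries held 23 to 27 members above the WT mean and WT libraries 12 to 18. These counts are on unscaled RPKM, where 68.7% of all genes had a positive difference. The median-ratio scaling factors were 0.999 to 1.07 in KO and 0.924 to 0.996 in WT libraries. No such counts were made over all genes or after scaling, so they do not set the members apart from other genes. The coefficient of variation between libraries had a median of 9.1% in KO and 8.98% in WT over the members.

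The share of each module within a library is not altered by a single scaling factor per library. Sums and shares are of gene values, where Med10 of the middle was at or near 0 RPKM. Its transcript had 20 to 28.8 RPKM in KO and 20.3 to 22.1 RPKM in WT libraries. Med10 is thus in effect left out, which understates the middle and overstates the shares of the other modules. The tail held 24.9%, 23.4%, 25.4%, 24.6% and 24.1% of the summed Mediator RPKM in KO animals 1, 4, 7, 8 and 17, against 26.7%, 25.2%, 29.3%, 27.8% and 26.4% in WT animals 2, 9, 19, 86 and 89. The lowest WT share, of animal 9, lay just under the highest KO share, of animal 7. The means were 24.5% ± 0.758 in KO and 27.1% ± 1.55 in WT libraries (SD, n = 5 each), with no test. With Med16 left out the tail held 20.2% to 22.8% in KO and 21.3% to 25.1% in WT libraries. The means were then 21.7% ± 1.04 in KO and 23.1% ± 1.33 in WT libraries (SD, n = 5 each). The gap between the means was narrower without Med16 but remained. The head summed to 92.2 to 109 RPKM in KO and 83.0 to 93.2 RPKM in WT libraries, and the middle to 53.8 to 58.8 RPKM in KO and 48.0 to 53.9 RPKM in WT libraries. The kinase module summed to 73.4 to 79.3 RPKM in KO and 68.6 to 72.3 RPKM in WT libraries, without overlap, while its share overlapped, at 22.9% to 25.1% in KO and 23.0% to 24.6% in WT libraries.

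**Figure D4:**
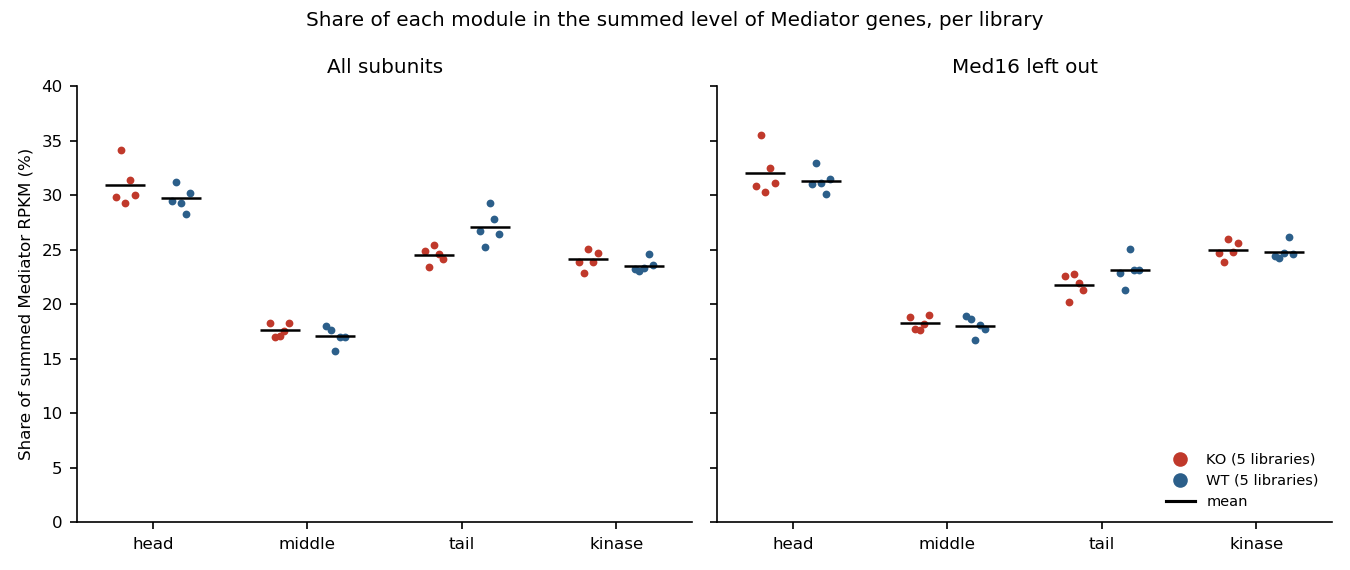
Share (%) of each module in the summed RPKM of all Mediator genes, per library, for 5 KO (red, left of each pair) and 5 WT (blue, right) libraries, with group means as bars, over all subunits (left panel) and with Med16 left out (right panel). The tail share is lower in KO on average, at 24.5% against 27.1% in WT, and the gap narrows without Med16.

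At the transcript level, 112 of the 148 Mediator transcripts were tested and 0 passed the test, against 0.544% of all 44475 transcripts tested (limma). An unadjusted p under 0.05 was found for 13 of the 112 (11.6%), against 9.44% of all. With median-ratio scaling and with quantile normalization 1 transcript was called. That was Med16 ENSMUST00000163125, a transcript with a retained intron that also had the smallest adjusted p without them. It had 2.02, 1.97, 2.78, 2.82 and 2.43 RPKM in KO and 3.8, 3.88, 3.88, 4.79 and 3.8 RPKM in WT libraries, all KO below all WT, a log2 difference of -0.65 (limma adjusted p = 0.0688). Another Med16 transcript with a retained intron, ENSMUST00000170375, had 2.42 ± 1.08 RPKM in KO and 6.79 ± 2.8 RPKM in WT libraries (SD, n = 5 each). Its groups overlapped, with a log2 difference of -1.30 (limma adjusted p = 0.133). The most abundant coding transcript of Med16, ENSMUST00000105378, had 11.3 ± 1.67 RPKM in KO and 13.3 ± 1.56 RPKM in WT libraries (SD, n = 5 each), with overlap and a log2 difference of -0.23 (limma adjusted p = 0.583). The main coding transcript of Med31, ENSMUST00000021157, had a log2 difference of 0.42 (limma adjusted p = 0.181), and that of Med27, ENSMUST00000028139, had 0.47 (limma adjusted p = 0.142). In both, all KO libraries lay above all WT libraries, which held for 3 of the 112 tested and the reverse for 1. The share over all transcripts was not counted. The remaining one of the 3 was Med6 ENSMUST00000161598, with 5.8 ± 2.7 RPKM in KO and 1.1 ± 1.1 RPKM in WT libraries. Its log2 difference was 2.24 (limma adjusted p = 0.175). Of Med19 the coding transcript ENSMUST00000102645 made up 96.3% ± 5.47 in KO and 88.9% ± 11 in WT libraries (SD, n = 5 each). Apart from Med19's, these transcripts were picked after their values were seen.

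Isoform usage, the difference of a transcript set against that of the gene's other transcripts, was tested for 101 transcripts of 22 members. None passed the test (limma diffSplice), against 0.322% of 36953 tested over all genes, and 12 (11.9%) had an unadjusted p under 0.05, against 6.84% of all. Using another pseudocount of 0.1 gave 1 call and array weights gave 2. Leaving out 1 library at a time gave 0 to 4 calls, with 4 when KO animal 4 was left out. Without KO animals 1 and 4 together there were 2. The shares over all transcripts in these settings are not given here. The smallest adjusted p was 0.0621, for Cdk8 ENSMUST00000159467. That transcript had 2.41, 0, 3.62, 3.58 and 3.38 RPKM in KO and 0, 0.061, 0, 0 and 1.78 RPKM in WT libraries, so KO animal 4 and WT animals 2, 19 and 86 were listed at 0 and the groups overlapped.

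The 2 deposited tables gave different levels for some members. Med10, a conserved middle subunit, was at 0 RPKM in 9 of 10 libraries of the gene table and at 0.0716 RPKM in WT animal 19, so it was not tested there. In the transcript table its transcript ENSMUST00000022089 had 23.4, 28.8, 20, 23.4 and 21.4 RPKM in KO and 20.9, 22.1, 22, 21.0 and 20.3 RPKM in WT libraries, a log2 difference of 0.12 (limma adjusted p = 0.765). The 0 in the gene table is therefore not a sign that the RNA is absent. Over all genes, 301 of the 7869 whose transcripts summed to at least 10 RPKM were under 0.1 RPKM in the gene table. The sum of a member's transcripts was over 2 times its gene value for 11 of 33 members (33.3%), against 30.9% of all genes at 0.5 RPKM or more. Beside Med10, it was over 5 times for Med28 (6.82), Med21 (6.61) and Med7 (5.81). The orders of abundance given above are of gene values and differ for the sums. Summed transcripts of Med21 averaged 47.3 ± 4.71 RPKM in KO and 38.0 ± 2.63 RPKM in WT libraries. Those of Med28 averaged 44.4 ± 5.45 and 41.4 ± 3.90 RPKM, and those of Med15 23.3 ± 2.09 and 22.7 ± 1.34 RPKM (SD, n = 5 each).

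Using the sum of transcripts in place of the gene value, a setting chosen after seeing the data, called 1 of 33 members higher (3.03%, against 0.885% of all) and 0 lower (against 1.54% of all). The gene called was Med27, with a log2 difference of 0.43 (limma adjusted p = 0.0432). Med31 had 0.54 (limma adjusted p = 0.0521) and Med21 0.31 (limma adjusted p = 0.0898), and the Med21 sums were 51.4, 52.9, 42.2, 46.6 and 43.4 RPKM in KO libraries and 37.9, 38.5, 38.3, 34.0 and 41.4 RPKM in WT libraries. All KO sums of Med21 lay above all WT sums, as did those of Med8, Med24, Med27 and Med31. The share over all genes was not counted. A transcript with a retained intron, ENSMUST00000075077, made up 66.1% ± 15.2 of the Med21 sum in KO and 65.4% ± 6.14 in WT libraries (SD, n = 5 each). Med16 had -0.41 (limma adjusted p = 0.130) and Med19 -0.14 (limma adjusted p = 0.666).

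**Figure D5:**
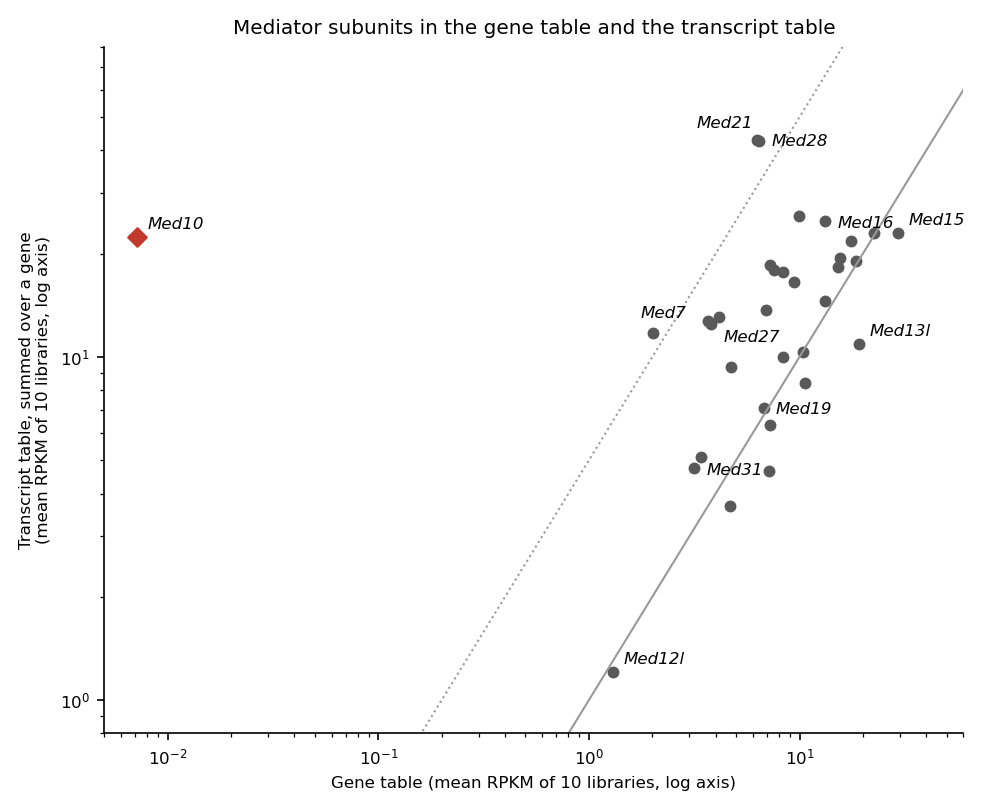
Mean RPKM over the 10 libraries of each of the 33 Mediator genes in the gene table (horizontal, log axis) and as the sum of its transcripts in the transcript table (vertical, log axis). The solid line marks equal values and the dotted line a sum of 5 times the gene value, and Med10 (red diamond) is near 0 in the gene table only.

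The rest of the transcription machinery gives the setting of these values. Of 91 genes in 6 lists, 88 were tested, 6 were higher in KO libraries and 3 lower. That is 6.82% higher and 3.41% lower, against 4% and 1.95% of all genes, and the list medians below stand beside 0.0891 over all genes. RNA polymerase II had 3 of 12 subunit genes higher and 0 lower, with a median log2 difference of 0.168. These were Polr2a, the largest subunit, with 37.7 ± 1.4 RPKM in KO libraries and 30.4 ± 3.0 RPKM in WT libraries (log2 difference 0.31, limma adjusted p = 0.0334), Polr2b (log2 difference 0.27, limma adjusted p = 0.0219) and Polr2j (log2 difference 0.37, limma adjusted p = 0.0366). Of the general transcription factors 2 of 18 were higher and 0 lower, with a median of 0.171. They were Gtf2b, which positions the polymerase at the start site (log2 difference 0.34, limma adjusted p = 0.0318), and Gtf2f1 (log2 difference 0.37, limma adjusted p = 0.0487). Of the TBP-associated factors of TFIID, 1 of 12 was higher and 0 lower, with a median of 0.166. That was Taf2, with 12.4 ± 0.356 RPKM in KO libraries and 9.98 ± 0.210 RPKM in WT libraries (log2 difference 0.30, limma adjusted p = 0.00436). With median-ratio scaling 0 of these 6 rises passed the test, and without KO animals 1 and 4 the lists held 1 gene called higher.

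Pause release and elongation factors had 0 of 20 called by limma and by voom and a median log2 difference of 0.087. An unadjusted p under 0.05 was found for 7 of the 20, against 24.7% of all genes. Their most abundant genes, Supt5 and Supt6, averaged 45.5 ± 2.02 and 33.9 ± 2.30 RPKM in KO and 40.1 ± 3.65 and 31.4 ± 2.38 RPKM in WT libraries (SD, n = 5 each). Cohesin and its loader, which bridge enhancers and promoters with Mediator, had 0 of 10 called by limma and by voom and a median of 0.17. Of these 10, 5 had an unadjusted p under 0.05, against the same 24.7% of all genes. Rad21 had 33.0 ± 3.12 RPKM in KO libraries and 31.0 ± 2.56 RPKM in WT libraries, and Pds5a had 25.4 ± 0.791 RPKM in KO libraries and 22.8 ± 1.52 RPKM in WT libraries. The activators known to bind Mediator subunits had 0 of 16 higher and 3 lower, with a median of 0.04. Pparg, the partner of Med1 and itself on the adipocyte marker list, had 29.7 ± 2.23 RPKM in KO and 65.0 ± 9.96 RPKM in WT libraries, a log2 difference of -1.11 (limma adjusted p = 2.6e-04). Ppara had -0.91 (limma adjusted p = 0.00417), and Srebf1, whose product binds Med15, had -0.79 (limma adjusted p = 0.0303). Med1 and Med15 themselves did not pass the test.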

How the data were processed

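RNA of 10 libraries, 5 labelled KO and 5 labelled WT, was compared, each named by the animal number in its title. The authors deposited RPKM values in a gene table and a transcript table, and the unit is known from the names of those tables. Tools named in the submitters' processing notes are STAR, featureCounts, Subread and bcl2fastq, while the genome build, annotation and strand setting are not stated there. The labels name polyA RNA. Identifiers repeated with the same values were used once. Whole reads recovered from the RPKM values of 25121 of 25122 genes (tolerance 0.001 reads) gave depth and an added voom fit.

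Genes or transcripts with at least 0.5 RPKM in at least 5 libraries were fitted on log2(RPKM + 0.5) with limma 3.58.1 in R 4.3.3 (eBayes with trend and robust, statmod 1.5.0, 2-sided), with Benjamini-Hochberg adjustment over all features and a threshold of 0.05. The pseudocount understates changes of low genes. Isoform usage was tested with limma's diffSplice on the same transcript fit. The main fit, the usage test and the recovery of reads were tested on simulated data, and voom and the alternative settings were not. Every adjusted p is from limma. Each sample is a numbered animal, and no batch, litter or date is given. RPKM depend on the other genes in a library, so 2 other scalings were tried. All per-sample columns were used. Promoter windows and motif counts are from RefSeq (GRCm38.p6), and overlapping genes are from GENCODE M21, which may differ from the authors' annotation.

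The members, modules and lists were chosen with earlier results of these data known. The genes named are Med19, every member called, the most and least abundant of each module by gene value, the kinase module paralogs, members whose groups do not overlap, and called transcripts. Of each list, up to 3 called genes with the largest change are named, or the 2 most abundant where none was called. Med1, Med14, Med17, Med20, Med25, Med26, Med6, Med8 and Med10 and the overlapping genes were named for their role or after their values were seen. Alternatives were median-ratio and quantile scaling, a pseudocount of 0.1 or 1, a minimum of 1 RPKM or none, plain eBayes, array weights, protein-coding genes only, voom, animals numbered under 20, leaving out each library and, chosen after seeing the data, the sum of transcripts and leaving out KO animals 1 and 4 together.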

Additional observations from a re-analysis of the deposited data

Results flagged for a closer look

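Among the 72 groups of 5 values examined (each tested member, the Med10 transcript and each paralog ratio, in KO and in WT), 3 held a library that stood apart from the other 4, and chance gives about 1 in 20 groups. Med25 had 25.4 RPKM in WT animal 19, against 21.4 to 22.4 RPKM in the other WT libraries. Med12l had 2.02 RPKM in WT animal 86, against 1.11 to 1.29 RPKM in the other WT libraries, and its log2 difference turned positive, at 0.039, without that library. The ratio of Cdk8 to Cdk19 was 1.5 in KO animal 4, against 0.827 to 0.991 in the other KO libraries.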

How the results depend on the processing

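No paired analysis was possible because the KO and WT animals share no number. Leaving out 1 library at a time called 1 to 4 Mediator genes higher and 0 to 1 lower, 0 transcripts and 0 to 4 usage differences, and 1 to 5 machinery genes higher and 2 to 3 lower. Over all 17257 to 17336 genes tested in those fits, 194 to 697 were called higher and 206 to 316 lower, so the number of calls moved widely over all genes too. Mediator genes called higher numbered 1 with no filter, median-ratio scaling, quantile normalization, animals numbered under 20 and the sum of transcripts, and genes called lower numbered 0 with no filter, animals under 20 and the sum of transcripts. Over all genes, 292 were higher and 247 lower of 29359 with no filter, and 71 higher and 137 lower of 17106 with animals under 20. Without both KO animals 1 and 4, which leaves fewer samples, 0 Mediator genes were called higher and 0 lower, 0 transcripts and 2 usage differences, and 1 machinery gene higher and 2 lower. Transcripts called numbered 1 with median-ratio and quantile scaling, and usage calls numbered 1 with a pseudocount of 0.1 and 2 with array weights. Machinery genes higher numbered 2 with no filter, 1 with animals under 20 and 0 with median-ratio scaling, quantile normalization and the sum of transcripts, and those lower numbered 5 with median-ratio and quantile scaling and 1 with animals under 20. The Med19 difference was -0.0655 with median-ratio scaling, -0.0459 with quantile normalization, -0.0629 with animals under 20, -0.0106 with protein-coding genes rescaled and -0.135 with the sum of transcripts, and -0.0373 to 0.0833 without 1 library. Signs also turned for Med23 (-0.0105) and Med13 (-0.0215) with the sum of transcripts, Med12 (-0.0114) and Med13l (-0.00185) with median-ratio scaling, and Med12l with animals under 20 (0.0175) and without KO animals 1 and 4 (0.00609), and without 1 library Med12l ranged between -0.123 and 0.039. Module medians with median-ratio scaling were 0.0771 (head), 0.0237 (middle) and 0.0227 (kinase), with quantile normalization 0.0315 (middle) and 0.0376 (kinase), and with the sum of transcripts 0.0111 (middle). The tail median turned negative with median-ratio scaling (-0.06), quantile normalization (-0.0686), protein-coding genes rescaled (-0.00188) and WT animal 9 left out (-0.00661). Array weights called 4 Mediator genes higher, against 869 of 17038 genes over all. Log2 paralog ratio differences with the sum of transcripts were 0.431 for Med12 to Med12l and -0.111 for Med13 to Med13l. Where the construction does not show it, the cause was not tested. Among the members, the call of Med31 ended with the sum of transcripts, at an adjusted p of 0.0521, and without both KO animals 1 and 4, at 0.0701 (limma). With 5 animals a group and a median coefficient of variation of 9.1% in KO and 8.98% in WT libraries, small differences of a member were not detectable.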
